A study of Mus musculus with 10 samples.

Results

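The 9 genes described here are Barx1, Tlx1, Tlx3, En1, En2, Cux2, Gsc, Six2 and Isl1, homeobox genes that lie outside the large homeobox clusters. They were picked by name, with earlier results of these data known, as genes with many 5-carboxylcytosine (5caC) sites in serum, so their levels and their difference between media are descriptions and are not tested. Each gene was taken as its RefSeq span in the mouse assembly GRCm38.p6 plus 2 kb on each side, and they are 9 of 21627 protein-coding genes on the listed chromosomes. Their windows held 1138 of the 1183229 entries of the deposited coverage table, at 907 of its 922427 positions.

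The study set out to map 5caC base by base, without bisulfite, in mouse embryonic stem cell DNA. The groups used are serum-2i Tdg, serum Tdg, serum-2i wt and serum wt, each with 2 technical replicates. Serum-2i is the serum medium with 3 µM CHIR99021, a GSK3 inhibitor, and 1 µM PD0325901, a MEK inhibitor, and all groups were grown without feeders and with the cytokine LIF. The labels give the gene name Tdg without the kind of alteration, and name neither the line nor the number of clones. DNA of serum-grown cells that lack all Tet genes was the negative control, and it had 0 entries in the table. Coverage of 5caC is no measure of expression, so the label of the cells could not be checked against marker genes.

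TET enzymes oxidise 5-methylcytosine stepwise to 5-hydroxymethylcytosine, 5-formylcytosine and 5caC, and the glycosylase TDG removes the last 2 of these bases before repair puts back plain cytosine. Cells without working TDG therefore keep 5caC that is normally removed. Homeobox genes encode transcription factors that bind DNA through a homeodomain and lay out the body plan. In embryonic stem cells many of them are silent, lie in CG-rich DNA and are held by Polycomb complexes.

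Coverage values come in steps of 0.5, and each was taken for the average over the 2 technical replicates of its group. A group was listed only from a minimum coverage upward, which was 6 in both Tdg groups, 4 in serum-2i wt cells and 3 in serum wt cells. The groups held 689303, 374488, 110753 and 8685 sites in the order serum-2i Tdg, serum Tdg, serum-2i wt and serum wt, with summed coverages of 12348368, 7486660, 890158.5 and 43172. A position that is not listed has an unknown value, not 0. With no value per replicate, differences have no replicate spread to stand against, and every interval covers counting error only. These are bulk DNA samples, so fewer cells that carry 5caC at a site and fewer carrying alleles per cell cannot be told apart.

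The sequences around the gene starts show which CGs of these genes carried a listed value. RefSeq promoter sequences, which run from 250 bases before to 50 bases after a transcription start, were found for 8 of the 9 genes, and En2 had none. Over all promoters, 13936 of 13936 listed positions (100%) fell on the C of a CG once 1 base was added, so the table counts from 0, and coordinates are given here counted from 1. The 4 promoters below show the range from many listed CGs to none. Each is printed 5′ to 3′ on the gene's own strand, and capitals mark the CGs that were listed in serum Tdg cells.
Tlx1, chr19:45150465-45150764, plus strand: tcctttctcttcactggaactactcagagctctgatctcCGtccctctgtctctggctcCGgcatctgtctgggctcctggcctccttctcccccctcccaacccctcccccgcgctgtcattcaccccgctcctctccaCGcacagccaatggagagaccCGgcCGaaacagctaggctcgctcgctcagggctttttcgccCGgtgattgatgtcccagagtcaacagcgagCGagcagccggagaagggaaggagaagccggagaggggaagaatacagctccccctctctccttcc
En1, chr1:120602237-120602536, plus strand: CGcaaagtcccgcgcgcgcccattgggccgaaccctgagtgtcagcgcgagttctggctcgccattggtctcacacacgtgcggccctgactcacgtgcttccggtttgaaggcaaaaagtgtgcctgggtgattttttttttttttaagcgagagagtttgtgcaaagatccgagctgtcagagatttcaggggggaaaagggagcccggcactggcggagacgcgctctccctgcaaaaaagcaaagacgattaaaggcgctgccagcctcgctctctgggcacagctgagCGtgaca
Barx1, chr13:48662786-48663085, plus strand: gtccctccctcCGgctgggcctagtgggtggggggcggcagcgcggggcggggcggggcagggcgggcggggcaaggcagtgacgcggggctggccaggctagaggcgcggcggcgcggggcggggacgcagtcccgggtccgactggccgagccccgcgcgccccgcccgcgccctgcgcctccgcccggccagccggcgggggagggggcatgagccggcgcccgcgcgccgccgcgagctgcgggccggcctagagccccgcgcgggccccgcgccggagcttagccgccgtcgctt
Isl1, chr13:116309639-116309938, minus strand: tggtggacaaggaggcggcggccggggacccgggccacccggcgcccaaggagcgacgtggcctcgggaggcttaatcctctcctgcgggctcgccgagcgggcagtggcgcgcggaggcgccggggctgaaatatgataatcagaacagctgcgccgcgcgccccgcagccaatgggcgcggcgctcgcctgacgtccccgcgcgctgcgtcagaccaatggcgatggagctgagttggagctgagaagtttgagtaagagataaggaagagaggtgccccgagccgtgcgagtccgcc

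Tlx1 had 7 of its 16 promoter CGs listed in serum Tdg cells, En1 had 2 of 23 and Barx1 had 1 of 50. The 7 CGs of Tlx1 lay between 211 and 16 bases before the start, with coverages of 22, 43.5, 18, 10.5, 14, 16 and 24.5 in 5′ to 3′ order, so they ran the length of the upstream window. The RefSeq span of Tlx1 begins further upstream, at chr19:45150092, so these 7 CGs lie inside the span. The 2 of En1 lay 250 bases before and 43 bases after its start, with 6.5 and 13, and that of Barx1 239 bases before its own start, with 13. Isl1 (37 CGs), Six2 (37), Gsc (25), Tlx3 (18) and the most upstream promoter of Cux2 (48) had 0. In serum-2i Tdg cells 0 of these CGs were listed in any of the 8 promoters. Few are listed in any such promoter in this group: 0.506% of CGs in promoters with 15 to 29 CGs and 0.0227% with 30 or more. Nothing is therefore read from the 0. In wt cells 1 CG of these 8 promoters was listed. It lay in Tlx1 at chr19:45150605, 110 bases before the start, with a coverage of 5.5 in serum wt and 18 in serum Tdg cells.

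These promoters are rich in CG, with 16 to 50 CGs in 300 bases and a median of 31, against a median of 7 over 32585 promoters. In serum Tdg cells 10 of their 254 CGs were listed (3.94%, exact Clopper-Pearson 95% interval 1.90 to 7.12). Among all promoters with 15 to 29 CGs, 2.44% of CGs were listed in serum Tdg cells, and among those with 30 or more, 0.358%. The 4 homeobox promoters of the first class had 9 of 82 CGs listed (10.98%, 5.14 to 19.8), 7 of them in Tlx1, and the 4 of the second class had 1 of 172 (0.581%, 0.0147 to 3.20). Over all promoters 2.90% of CGs were listed in serum Tdg cells. These genes were chosen for many sites in serum, so nothing is read from the higher share in the first class.

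Barx1, a factor of stomach and tooth development, spans chr13:48663036-48666507. It had 3 listed sites in serum-2i Tdg cells against 62 in serum Tdg cells, and 1 site in each wt group. The summed coverage was 36.5 against 1340.5 in the Tdg groups, and 4 in serum-2i wt against 4.5 in serum wt cells. The 2 Tdg groups stood far apart: all 3 positions listed in serum-2i Tdg cells were listed in serum Tdg cells too, where each had the higher coverage. Its highest site, at chr13:48662522 in the upstream flank, had a coverage of 15 in serum-2i Tdg and 67 in serum Tdg cells.

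Tlx1 is needed for the spleen to form, and Tlx3 directs the fate of sensory relay neurons of the spinal cord. Tlx1 (chr19:45150092-45156943) had 31 sites in serum-2i Tdg cells against 135 in serum Tdg cells, with summed coverages of 528 and 3977.5. Each wt group listed 4 sites, which summed to 26 in serum-2i against 17 in serum. Tlx1 was the densest of the genes in serum Tdg cells, at 12.4 sites per kb of window. Tlx3 (chr11:33200752-33203588) had 2 sites in serum-2i Tdg and 23 in serum Tdg cells and none listed in either wt group, with summed coverages of 19 and 498. Of the 23 sites 20 lay in the flanks and 3 inside the span of Tlx3, the reverse of Tlx1, where 114 of 135 lay inside. The highest Tlx3 site, with a coverage of 80 in serum Tdg cells alone, lay at chr11:33199275 past the downstream end, and the highest of Tlx1, at chr19:45156160, had 8 in serum-2i Tdg and 117.5 in serum Tdg cells.

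En1 and En2 are the engrailed paralogues that pattern the midbrain and hindbrain. En1 (chr1:120602487-120607991) had 7 sites in serum-2i Tdg against 65 in serum Tdg cells, with summed coverages of 103.5 and 1400, and 2 sites summing to 17 in serum-2i wt cells. En2 (chr5:28165696-28172190) had 16 against 62 sites, with 247 and 1915.5, and 3 sites summing to 23 in serum-2i wt cells. Neither had a listed site in serum wt cells. En2 held the site of highest coverage among the 9 genes, at chr5:28171268 inside its span, with 25.5 in serum-2i Tdg, 223 in serum Tdg and 7 in serum-2i wt cells. That site made up 11.6% of the coverage of En2 in serum Tdg cells.

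Gsc, the organizer gene goosecoid (chr12:104471209-104473236), had 11 sites in serum-2i Tdg against 31 in serum Tdg cells, with summed coverages of 124.5 and 580, and 2 sites summing to 17 in serum-2i wt cells. Six2, which keeps the progenitors of kidney nephrons self-renewing (chr17:85662736-85688254), had 15 against 84 sites in these Tdg groups, with 202 and 1909, and in wt cells 2 sites summing to 12 in serum-2i and 1 site of 5 in serum. Isl1, a LIM-homeodomain factor of motor neurons, heart progenitors and pancreatic islets (chr13:116298270-116309688), had 12 against 48 sites in the Tdg groups, with 246 and 1030, and 1 site of 9 in serum-2i wt cells. All 3 were lower in serum-2i Tdg cells by sites and by coverage. Some single sites went the other way. At 4 of the 13 Six2 positions and 2 of the 11 Isl1 positions listed in both media, coverage was higher in serum-2i, and chr13:116298994 in Isl1, 10.7 kb downstream of the start, had 87.5 in serum-2i Tdg and 45.5 in serum Tdg cells.

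Cux2, a cut-homeodomain factor of upper-layer cortical neurons, stood apart from the other 8 genes, for its share of listed coverage differed little between the media. It had 280 sites in serum-2i Tdg against 184 in serum Tdg cells, with summed coverages of 4955.5 and 3756.5. The serum-2i Tdg group is also the deeper one, and relative to each group's total Cux2 was slightly lower in serum-2i, by less than the 2-fold difference used for a call. In wt cells it had 45 sites summing to 339.5 in serum-2i, against 1 site of 4.5 in serum. Its span (chr5:121857962-122050415) of 192 kb is the longest, against 2.03 kb for Gsc to 25.5 kb for Six2 among the other 8 genes, and its density in serum Tdg cells was the lowest at 0.937 sites per kb. Within 10 kb of its start it had 22 sites in serum-2i Tdg and 20 in serum Tdg cells, and in the rest of its window 258 and 164. Single sites went either way: chr5:121938811 had a coverage of 127.5 in serum-2i Tdg and 31.5 in serum Tdg cells, while chr5:122011444 had 38 and 130.5. Of the 381 listed positions of its window 80 also lay in the span of a long noncoding RNA gene.

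**Figure D1:**
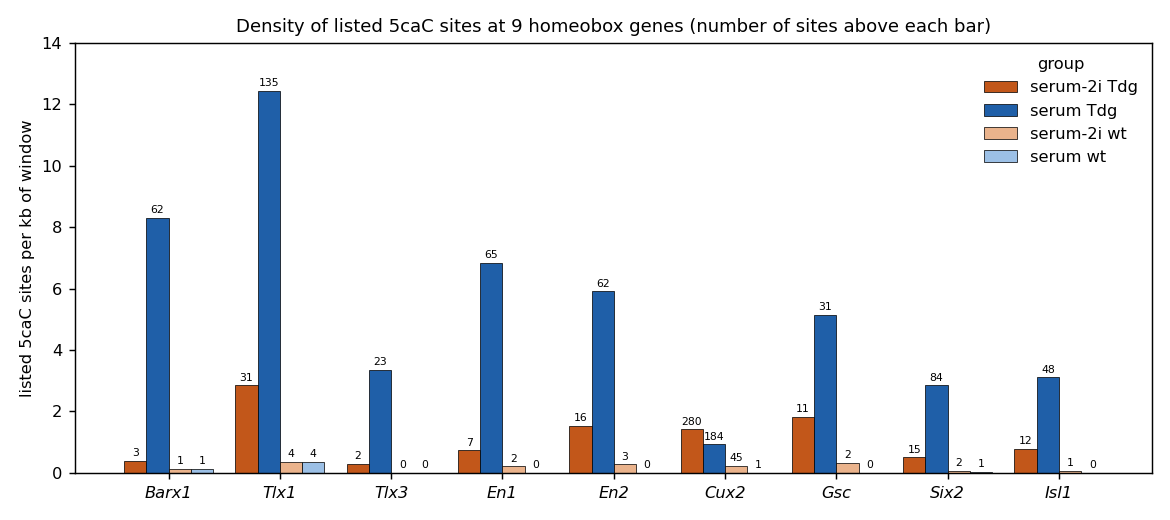
Listed 5caC sites per kb of window (vertical axis) for the 9 genes, as 1 bar per group, with the number of sites printed above each bar. Serum Tdg bars run from 0.937 per kb at Cux2 to 12.4 at Tlx1, and Cux2 alone has its serum-2i Tdg bar above its serum Tdg bar.

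In order of sites per kb in serum Tdg cells the genes ran from Tlx1 (12.4) through Barx1 (8.30), En1 (6.84), En2 (5.91), Gsc (5.14), Tlx3 (3.36), Isl1 (3.11) and Six2 (2.85) to Cux2 (0.937). In serum-2i Tdg cells Tlx1 was again densest (2.86), followed by Gsc (1.82), En2 (1.52) and Cux2 (1.43), and Tlx3 was sparsest (0.293). Whether neighbours in either order differ beyond replicate spread could not be judged. The median coverage per listed site of the other 8 genes lay between 9.50 and 16 in serum-2i Tdg cells and between 13 and 21.5 in serum Tdg cells, against medians of 13.5 and 14.5 over all listed sites of those groups.

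Serum-2i against serum among Tdg cells addresses the effect of the 2 inhibitors on the placing of 5caC. It is the contrast behind the choice of genes, so nothing is read from it beyond the sizes. A gene's coverage was expressed as its share per 1000000 of its group's summed coverage, and the log2 ratio of these shares carries an exact conditional Clopper-Pearson 95% interval. A gene was called lower or higher where the shares differed by at least 2-fold and the interval left out no difference. Barx1 had a share of 2.96 in serum-2i Tdg and 179 in serum Tdg cells, a log2 ratio of -5.92 (interval -6.28 to -5.59), and Tlx3 had 1.54 and 66.5 (-5.43, -5.94 to -4.97).

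Next came En1 with a log2 ratio of -4.48 (interval -4.69 to -4.28), Six2 with -3.96 (-4.11 to -3.81), En2 with -3.68 (-3.82 to -3.54) and Tlx1 with -3.64 (-3.73 to -3.54). Gsc (-2.94, -3.15 to -2.74) and Isl1 (-2.79, -2.93 to -2.65) stood nearer to 0. Cux2 had a share of 401 in serum-2i Tdg and 502 in serum Tdg cells, a log2 ratio of -0.32 (-0.37 to -0.28). In all, 8 of the 9 genes were called lower and Cux2 was not called, where 27% of 15158 protein-coding genes with a ratio were called lower and 25.3% higher. Among spans under 30 kb, which all 8 have, 39.5% were called lower and 16.9% higher.

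Sites listed in both media give a comparison position by position. The 8 genes without Cux2 had 97 sites in serum-2i Tdg cells, of which 87 (89.7%, exact 95% interval 81.9 to 94.9) were also among the 510 listed in serum Tdg cells, where they made up 17.1%. At those 87 positions the median coverage was 13 in serum-2i Tdg and 40 in serum Tdg cells, and 80 had the higher value in serum. Cux2 differed here too, since 106 of its 280 serum-2i Tdg sites were listed in serum Tdg cells, 52 of them higher in serum-2i and 51 higher in serum. Over all 9 genes 193 of the 377 serum-2i Tdg sites were also listed in serum Tdg cells, and 131 of the 193 were higher in serum. Over the whole series 28.7% of serum-2i Tdg sites were also listed in serum Tdg cells, and 47.4% of those positions were higher in serum. The genes were chosen for many sites in serum, so nothing is read from how they differ from the whole series here. Setting Cux2 aside was decided after its values were seen.

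Sites came in tight runs in serum Tdg cells. A run was taken as at least 10 listed sites with gaps of at most 100 bp. In serum Tdg cells 16 of the 1110 runs of the series lay in these windows, in 8 of the 9 genes, and in serum-2i Tdg cells 0 of 429 did. A run needs many listed sites, and the genes were chosen for many in serum, so nothing is read from this difference between media. Tlx1 held 5 of the 16 runs, with up to 26 sites in a run, En2 held 3, and Barx1 and En1 held 2 each, while Cux2, Gsc, Six2 and Isl1 held 1 each. The longest run of Isl1 had 20 sites, those of En1 and En2 19 each, and those of Cux2 and Six2 10 each. Tlx3 held none, its longest stretch being 8 sites. The median gap between neighbouring sites in serum Tdg cells was 27 bp in Tlx1 and 40 bp in Barx1, and 94 bp in Tlx3.

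**Figure D2:**
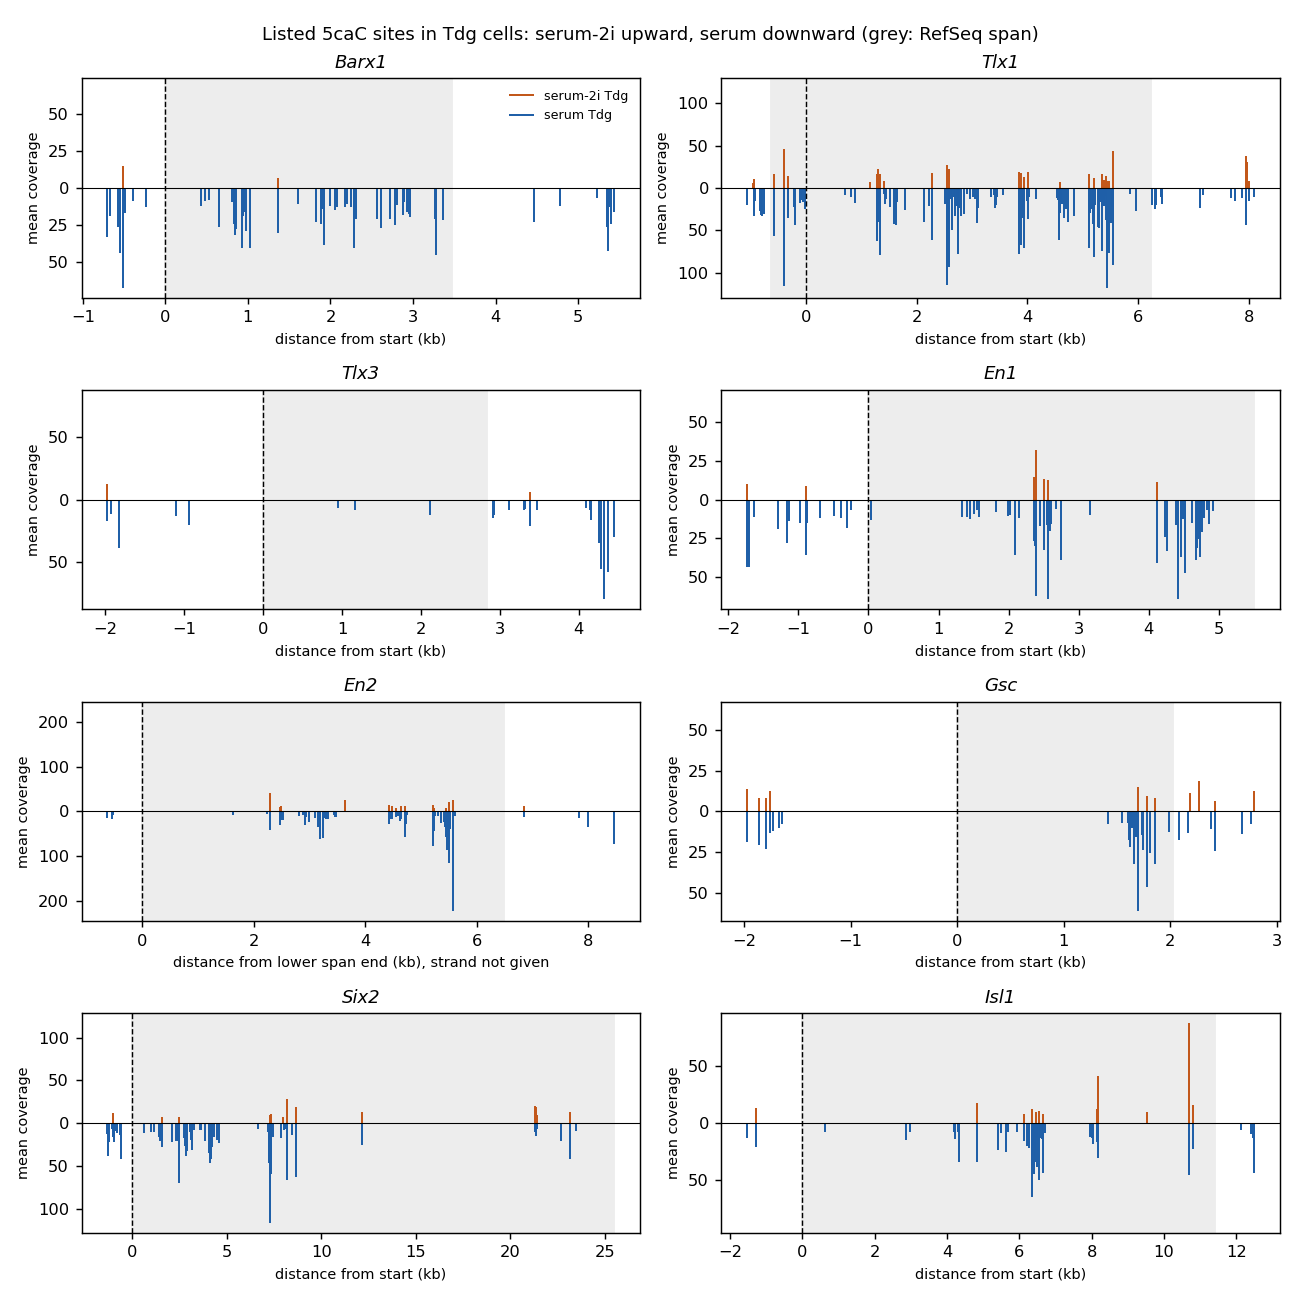
Mean coverage of each listed site in Tdg cells against its distance in kb from the gene start along the direction of transcription, upward for serum-2i and downward for serum, for the 8 genes other than Cux2, with the RefSeq span in grey. En2, whose strand was not given, is drawn from the lower end of its span. Serum-2i sites are fewer than serum sites in every panel, from 2 against 23 in Tlx3 to 31 against 135 in Tlx1.

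The place of sites relative to the start was not used to choose the genes. No serum Tdg site of Gsc lay within 1418 bp downstream or 1644 bp upstream of the start, so its gap was 3.06 kb wide. The gap around the start was 1.91 kb in Isl1, 1.89 kb in Tlx3, 1.81 kb in Cux2, 1.24 kb in Six2, 0.716 kb in Tlx1, 0.676 kb in Barx1 and 0.293 kb in En1. In serum-2i Tdg cells it was wider in each of the 8 genes with a start, from 1.48 kb in Tlx1 to 6.12 kb in Isl1. A gap widens where fewer sites are listed, and the genes were chosen for many sites in serum. Nothing is therefore read from this difference between media. The median gap of the 8 was 2.90 kb in serum-2i Tdg and 1.52 kb in serum Tdg cells, against 3.87 and 2.03 kb for 3176 other protein-coding genes with at least 20 serum Tdg sites.

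Counted in steps of 500 bp, the 8 genes had 0.750 serum Tdg sites per kb and gene in the first 500 bp after the start, which were 3 sites, 2 of Barx1 and 1 of En1. In that step 17265 other protein-coding genes had 0.768 per kb. On either side the homeobox genes had 4.50 per kb in the 500 bp before the start and 5.50 between 500 and 1000 bp after. The other genes had 0.901 and 0.658 there. Between 1000 and 1500 bp after the start the homeobox genes had 8.25 per kb and the other genes 0.620. Of the 33 homeobox sites between 1000 and 1500 bp, 12 were of Cux2 and 10 of Tlx1, and Isl1 had 0. A higher level than in unselected genes follows from the choice of genes, so the steps are to be compared within a set of genes. In serum-2i Tdg cells the homeobox genes had 0 sites in the first 1000 bp after the start and 2.75 per kb in the next 500 bp, against 0.376, 0.330 and 0.431 per kb in the other genes over these steps. Of the 11 homeobox sites in the last of these steps, 6 were of Tlx1 and 4 of Cux2. Of the 18 serum Tdg sites in the 500 bp before the start, 10 were of Tlx1 and 4 each of Barx1 and En1. Those of Tlx1 lay inside its RefSeq span, which begins upstream of the start used here.

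**Figure D3:**
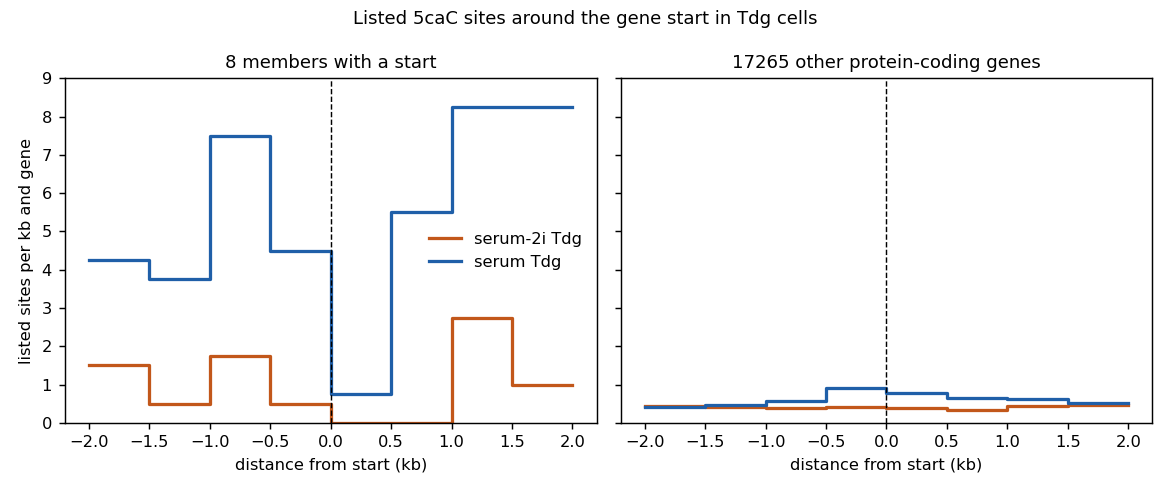
Listed sites per kb and gene in Tdg cells in steps of 500 bp from 2 kb before to 2 kb after the start, for the 8 homeobox genes with a start (left) and 17265 other protein-coding genes (right). Serum Tdg cells show 0.750 sites per kb in the step after the start of the homeobox genes and 8.25 further in. The other genes, which were not chosen for many sites, have their highest value, 0.901, in the step before the start.

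Within 1 kb of a start lay 17 of 377 sites in serum-2i Tdg cells (4.51%, exact 95% interval 2.65 to 7.12) and 93 of 694 in serum Tdg cells (13.4%, 10.95 to 16.2). For En2 both span ends stood in for the start. Without Cux2 the shares were 13 of 97 (13.4%, 7.33 to 21.8) and 79 of 510 (15.5%, 12.5 to 18.9), so that the difference between the media in this share went with Cux2, whose long interior held most of the serum-2i sites.

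The wt groups were not used to choose the genes. The 9 windows held 60 sites in serum-2i wt cells (0.0542% of the group's sites, exact 95% interval 0.0413 to 0.0697) and 7 in serum wt cells (0.0806%, 0.0324 to 0.166). Of these, Cux2 held 45 and 1. Without Cux2 the shares were 15 sites (0.0135%, 0.00758 to 0.0223) and 6 sites (0.0691%, 0.0254 to 0.150). This was computed after the values of Cux2 were seen, and the median short gene was lower in serum-2i wt cells too, at -1.90 on the log2 scale. The 6 serum wt sites were 4 of Tlx1 and 1 each of Barx1 and Six2. Those of Tlx1 lay 110 bases before and 1.60, 2.64 and 5.21 kb after its start, with coverages of 5.5, 3.5, 4.5 and 3.5, so they were spread over the gene. The 4 sites of Tlx1 in serum-2i wt cells lay elsewhere in it, 0.938 kb before and 1.40, 4.53 and 5.96 kb after the start, with coverages of 9, 6, 6 and 5.

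Of the 9 genes, Tlx1 and Cux2 had sites in both wt groups and a summed coverage of at least 20, which a ratio needed. Tlx1 had a share of 29.2 per 1000000 in serum-2i wt cells, against 394 in serum wt cells, a log2 ratio of -3.75 (interval -4.40 to -3.08), and was called lower. Cux2 had shares of 381 and 104 (1.87, 0.94 to 3.01) and was called higher, from 1 serum wt site, but not when sites were counted in place of coverage (1.82, -0.73 to 7.15). Among spans over 100 kb 17.4% were called higher. A ratio exists only for genes with a listed serum wt site, and among 2988 such genes 53.9% were called lower and 5.52% higher, with a median of -1.27. Among those with spans under 30 kb 74.9% were called lower, so the call of Tlx1 is what most such genes received.

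The sum over all 9 genes had a log2 ratio of -0.51 (-0.89 to -0.12) in wt cells, but 0.76 when the median gene was set to 0 and 0.61 without the highest site of each gene and group, so it has no settled direction. En1, En2, Gsc and Isl1 were listed in serum-2i wt cells alone and Tlx3 in neither wt group. Barx1 and Six2 were listed in both wt groups with a summed coverage under the minimum.

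Tdg against wt cells was compared within each medium. The Tdg values behind the choice of genes enter both ratios, so these too are descriptions. In serum, Cux2 had a share of 502 per 1000000 in Tdg and 104 in wt cells (log2 ratio 2.27, interval 1.34 to 3.40) and Six2 had 255 and 116 (1.14, 0.26 to 2.20), and both were called higher, where 4.22% of 3841 protein-coding genes were and 55% were called lower. Each of these calls rests on 1 serum wt site, and neither was called when sites were counted in place of coverage. Barx1 (0.78, -0.15 to 1.91) and Tlx1 (0.43, -0.05 to 0.96) were not called, and the remaining 5 genes were listed in serum Tdg cells alone, with 23 to 65 sites each. The median gene of the whole comparison stood at -1.26. A ratio needs a listed serum wt site, which the 3841 genes have, so their shares and median do not describe all protein-coding genes.

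In serum-2i, 8 of the 9 genes had a ratio of Tdg over wt cells, and 7 were not called. They ranged from -0.92 in Gsc (interval -1.44 to -0.36) to 0.98 in Isl1 (0.30 to 1.75), with Cux2 at 0.07 (-0.04 to 0.19). En1 was called lower, with a share of 8.38 per 1000000 in Tdg and 19.1 in wt cells (-1.19, -1.72 to -0.62), where 24.2% of 12898 protein-coding genes were called lower and 10.7% higher. With flanks of 5 kb the ratio of En1 turned to 0.53 and Barx1 was the gene called lower. Tlx3 was listed in serum-2i Tdg cells alone.

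**Figure D4:**
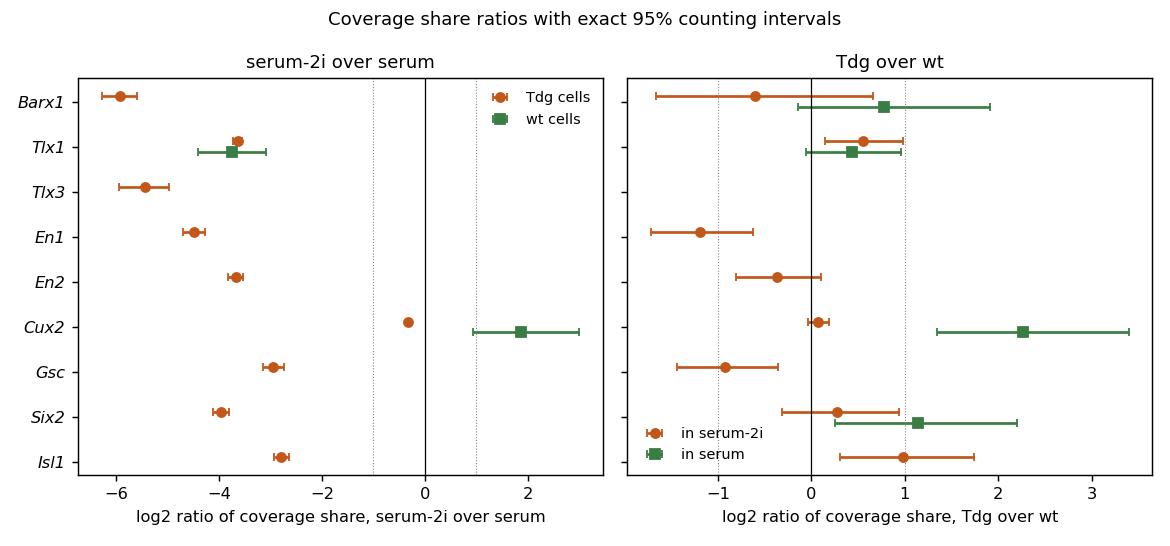
Log2 ratio of coverage share with exact 95% counting intervals for each gene, serum-2i over serum (left, Tdg and wt cells) and Tdg over wt (right, in serum-2i and in serum), with dotted lines at a 2-fold difference. In Tdg cells 8 genes lie between -5.92 and -2.79 and Cux2 at -0.32, and no point is drawn where a group listed no site.

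Positions of these genes recurred between the genotypes. In serum-2i, 29 of the 60 wt sites (48.3%, exact 95% interval 35.2 to 61.6) were listed in Tdg cells, which is 7.69% of the Tdg sites, and over the whole series 49.1% of wt sites were. In serum, 5 of the 7 wt sites (71.4%, 29.04 to 96.3) were listed in Tdg cells, among them all 4 of Tlx1, and over the whole series 54.5% were. Of the 7 serum wt sites 0 were listed in serum-2i wt cells, where the whole-series share was 11.4%, a difference that 7 sites cannot show. Of the 907 positions, 493 were listed in serum Tdg cells alone, 169 in serum-2i Tdg alone, 178 in the 2 Tdg groups alone and 27 in serum-2i wt alone.

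Related genes were set beside them in Tdg cells, in lists chosen with earlier results of these data known, so these counts are descriptions too. Over all protein-coding genes with a ratio, 27% were called lower in serum-2i and 25.3% higher. Among spans under 30 kb these shares were 39.5% and 16.9%. Of 10 paralogues, 6 were called lower in serum-2i, 0 higher and 3 were not called, with a median log2 ratio of -3.18, and Gsc2 was listed in serum Tdg cells alone (8 sites). Isl2, a motor neuron factor, had 6 sites in serum-2i and 47 in serum (-4.04, interval -4.26 to -3.82) and Six3, of eye and forebrain, 24 and 113 (-3.68, -3.79 to -3.56). Cux1, the close relative of Cux2 with a span of 319 kb, had 151 and 72 (0.34, 0.27 to 0.42), and Six4 25 and 20 (-0.47, -0.62 to -0.32). Cux1 and Cux2, the long cut factors, thus stood near 0, and so did Six4, although its span is 14.4 kb. The median over all protein-coding spans over 100 kb was 0.94, above both Cux1 and Cux2.

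Of 57 other homeobox genes, 47 were called lower, 0 higher and 8 were not called, while Crx was listed in serum-2i alone (7 sites) and Pitx3 in serum alone (9 sites). The 55 ratios had a median of -2.50 against -0.04 over all protein-coding genes, of which 27% were called lower and 25.3% higher. Uncx, of the axial skeleton, was lowest with 2 sites in serum-2i and 37 in serum (-5.87, -6.35 to -5.43), followed by Shox2, of the sinus node and limb, with 1 and 17 (-5.68, -6.44 to -5.00). The highest were Pknox1 with 70 and 27 (0.10, 0.01 to 0.19) and Pknox2 with 226 and 115 (0.05, 0.00 to 0.10), both partners of PBX proteins.

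Of 15 cofactor genes, 5 were called lower and 7 higher, where 27% of all protein-coding genes with a ratio were called lower and 25.3% higher. Lmo4, a LIM-only protein that binds LDB1, had 3 sites in serum-2i and 9 in serum (-3.90, -4.37 to -3.45) and Pbx2, a DNA-binding partner of homeodomain factors, 25 and 32 (-2.02, -2.15 to -1.89). Eya1, a phosphatase that partners homeodomain factors such as Six2, had 58 and 8 (2.59, 2.40 to 2.79), and the corepressor gene Tle4 52 and 8 (2.06, 1.88 to 2.25). The lists differ in gene length, and among all protein-coding spans over 100 kb 3.9% were called lower and 48.2% higher in this comparison.

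**Figure D5:**
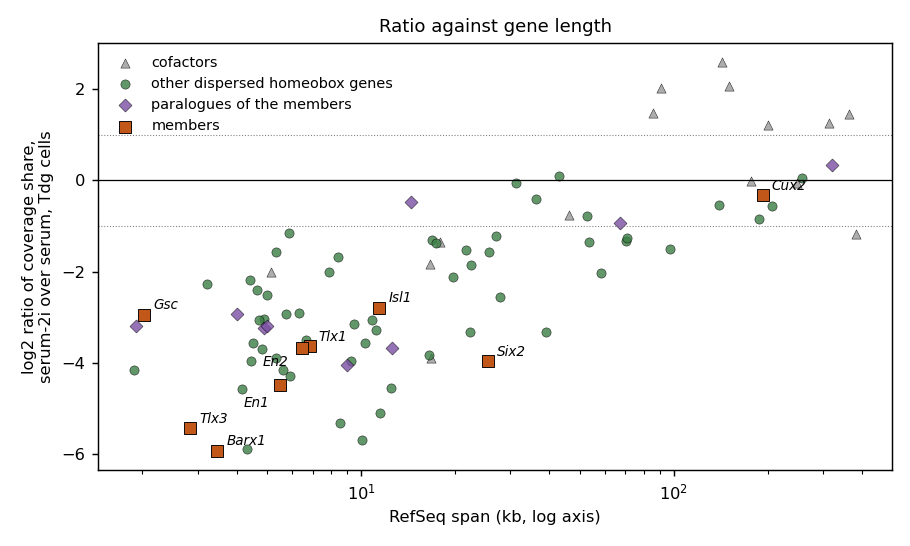
Log2 ratio of coverage share, serum-2i over serum in Tdg cells, against the RefSeq span in kb on a log axis, for the 9 genes (squares), their paralogues, other homeobox genes and cofactors. Genes under 10 kb all lie below -1, and Cux2 at 192 kb lies at -0.32 beside other long genes.

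The pooled genes split their coverage share over the groups unevenly: serum-2i Tdg cells held 13.3% of the sum of the shares, serum Tdg cells 55.7%, serum-2i wt cells 12.8% and serum wt cells 18.2%. Of 6734 protein-coding genes with a serum Tdg coverage of at least 200 and a window apart from theirs, Pax3, a neural crest and muscle factor, was most alike over these 4 groups, with a summed absolute difference of 0.0577. It was followed by Sorbs3 (0.0581), Rara (0.0942), Ddr1 (0.0948) and Bahd1 (0.0963). Each of the 5 had 1 serum wt site, so the likeness rests on few sites in that group. Cux2 made up 4955.5 of the pooled coverage of 6462 in serum-2i Tdg cells and 339.5 of 447.5 in serum-2i wt cells. The pooled split in serum-2i is thus mostly that of Cux2, and likeness to the other 8 genes alone was not computed.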

How the data were processed

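The authors deposited coverage, a signal at or above 0, for each listed CG of each group, on the mm10 assembly per the submitters' processing notes. The sources used here name no aligner, no site caller and no listing rule. Per the labels' protocols, 5hmC and unmodified CGs were blocked, 5caC was decarboxylated and tagged by an engineered SssI methyltransferase, and tagged DNA was enriched, primed at the tag, amplified and sequenced. PCR duplicates and reads over several CGs make intervals too narrow.

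From the table, sites were counted and coverage summed over the 9 windows, and over all 21627 protein-coding genes, with Python 3.11.15, pandas 2.3.3 and scipy 1.17.1. Group ratios used coverage summed over 2 replicates, needed a site in both groups and a summed coverage of at least 20, and were tested on simulated data. No p-value was computed, since each group has 1 value. The members and lists were chosen with earlier results of these data known. Named were all members, the extremes of each list, and the 5 genes most alike in their split over groups. Alternatives varied the window, coverage minimum, measure, scaling, single sites and distance. Counting positions from 1 moved 1 entry of Barx1 out of the windows, leaving 1138 of 1139. Promoter sequences are RefSeq's, GRCm38.p6.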

Additional observations from a re-analysis of the deposited data

Results flagged for a closer look

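Cux2 went in opposite directions in the 2 genotypes: the log2 ratio of serum-2i over serum was -0.32 in Tdg cells and 1.87 in wt cells. The difference was not tested, and the wt value rests on 1 serum wt site with a coverage of 4.5. Barx1 had log2 ratios of Tdg over wt of opposite sign in the 2 media. They were -0.60 in serum-2i (interval -1.66 to 0.66) and 0.78 in serum (-0.15 to 1.91), and both intervals include no difference. The contrast between the media was not tested either, and each of these ratios rests on 1 wt site.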

How the results depend on the processing

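No paired analysis was possible because the table gives 1 value per group and none per replicate, so the replicate block and leaving out replicates were not run. In Tdg cells, 71 ratios of serum-2i over serum for the 8 genes other than Cux2, over the alternatives in window, minimum, measure, scaling and single sites, all stayed below 0 (-7.72 to -2.37) and 8 genes stayed called lower, except without flanks, where Tlx3 had no serum-2i Tdg site left and 7 were. The wt comparisons were less settled. In wt cells the number of genes called lower, 1, became 3 with 5 kb flanks and 0 with a minimum of 6 or 10, since no serum wt site of these windows reached 6. For Tdg over wt in serum the 2 called higher became 1 without flanks or without Cux2, 0 at either minimum, by sites or without the highest sites, and 4 under median-ratio scaling, which added 1.26 to each ratio. In serum-2i the 1 called lower, En1, became 2 genes without flanks and 0 by sites, under median-ratio scaling or without the highest sites, and the ratio of En1 turned to 0.53 with 5 kb flanks. The gene called lower was then Barx1 (-1.14), with Isl1 called higher (1.31), and at a minimum of 6 it was Gsc (-1.17), with En1 at -0.87. The call of Cux2 as higher in wt cells was lost by sites (1.82). Median-ratio scaling added 1.27 in wt cells, 0.27 for Tdg over wt in serum-2i and 0.04 in Tdg cells. The share of sites near a start was 3.17% within 0.5 kb, 29.8% within 2 kb and 9.38% with 5 kb flanks in serum Tdg cells, and 0.796% within 0.5 kb, 11.1% within 2 kb and 13.4% without Cux2 in serum-2i Tdg cells. The share of serum-2i Tdg sites also listed in serum Tdg cells, 51.2%, became 56.8% with 5 kb flanks and 89.7% without Cux2. A minimum of 10 raised the median coverage per site to 17.5 in serum-2i Tdg and 20 in serum Tdg cells. Leaving out Cux2 and counting positions from 0 were chosen after seeing the data.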

Other observations

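The homeodomain core TAAT, or ATTA on the other strand, occurred in 6 of the 9 promoter windows of these genes, with 5 matches in Tlx3 and 3 in Six2, and in 58.0% of 32585 promoters of the same length. The CCAAT box, with ATTGG as its reverse, occurred in 5 of the 9 windows and in 37.6% of all promoters. The Sp1 motif GGGCGG, or CCGCCC on the other strand, occurred in 4 of the 9 windows, with 6 matches in Barx1, and in 35.9% of all promoters. The 9 windows are the most upstream starts of 8 genes and a second start of Cux2. Each motif was counted by itself, and matches of TAAT and CCAAT can overlap by letters, and a match describes letters only.

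Some windows overlap a long noncoding RNA gene. Barx1 shared 9 of its 63 listed positions with Gm36606, Gsc shared 9 of 35 with Gm10000 and Six2 shared 16 of 88 with CJ186046Rik, so these sites cannot be given to 1 gene.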
